A study of Mus musculus with 7 samples.

Results

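Oxidative phosphorylation is the stage of respiration in which the mitochondrial inner membrane turns the oxidation of NADH and succinate into ATP. Complex I, complex II, complex III and complex IV pass electrons to oxygen, all but complex II pump protons, and the ATP synthase uses the proton gradient. Pancreatic acinar cells make and export large amounts of digestive enzyme and have a high demand for ATP, and mitochondrial damage in these cells is a known feature of acute pancreatitis. The members were chosen by symbol: protein-coding nuclear genes on GRCm38 that begin with Nduf, Uqcr or Atp5, the genes Sdha to Sdhd, and the Cox4 to Cox8 subunits. This gave 96 of 21631 protein-coding genes on chromosomes 1 to 19 and X. They were sorted into complexes by symbol alone, not by known membership. The groups hold 41 complex I genes, 8 complex I assembly factors and 4 complex II genes. They also hold 8 complex III genes, 18 complex IV genes and 17 ATP synthase genes. Ndufa4, Ndufa4l2 and the short copies Ndufb4b and Ndufb4c are thus counted with complex I.

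Pancreatic epithelial cells of wild-type C57BL/6J mice were purified and profiled by ATAC-seq, in which the transposase Tn5 cuts and tags accessible DNA. Cells came from untreated mice or from mice harvested 1, 7 or 28 days after caerulein, an analogue of cholecystokinin that causes acute inflammation of the pancreas. Each of these groups had 1 library and 1 list of accessible regions, so no difference below has a replicate check and no test was possible. Whether a library pooled several mice is not given in the sources used here. Values given 4 in a row always stand for the untreated, day 1, day 7 and day 28 libraries, in that order. Another 3 samples of the series, DCLK1-positive cells of Dclk1-DTR-ZsGreen mice, were not analysed here.

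The lists held 140286, 164684, 145337 and 130149 regions. The background pileup (reads stacked over a position by chance) was 5.07, 5.35, 2.72 and 2.52, and the lowest fold enrichment listed was 2.47, 2.36, 2.95 and 2.84. In the regions that all 4 lists shared, the median of fold enrichment minus 1 was 7.4, 16.6, 15.1 and 11.5. A fold is therefore read within its own list, and folds of different lists are set side by side without a size of change. The 7 acinar marker genes had 125, 33, 75 and 116 regions, and 7, 3, 5 and 7 of them had a region at the gene start. The 7 fibroblast marker genes had 89, 140, 122 and 90 regions, with a start region at all 7 in every library. The 6 leukocyte marker genes had 25, 27, 24 and 25 regions. Of the 27 at day 1, 15 overlapped no untreated region (55.6%), against 48.6% of all regions near protein-coding genes. Of the 25 untreated regions, 12 overlapped none at day 1 (48.0%), against 36.8%. Ptprc had 0, 1, 1 and 0 and Cd3e 0, 0, 0 and 1, while Csf1r had 2, 11, 8 and 3 with a start region at day 1 only, Itgam had 6, 2, 1 and 4, and Spi1 and Cd68 had a start region in every library. Of the epithelial markers, Krt19 had a start region in every library, and Epcam in the untreated and day 7 libraries but not at day 1 or day 28. In such bulk samples, fewer cells of a type and less signal per cell cannot be told apart.

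Nearly every oxidative phosphorylation gene had an accessible start in all 4 libraries. A start region was counted when a summit lay within 1 kb of an annotated transcription start, or of either gene end for the 18 members without an annotated start. Such a region was present at 90, 90, 89 and 88 of the 96 genes. Among all protein-coding genes the shares were 66.7%, 66.0%, 66.8% and 65.2%. In all 4 lists together, 88 members had a start region, which is 91.7%, against 61.0% of all protein-coding genes. Complex II, complex III, the ATP synthase and the complex I assembly factors were complete, while complex I had 37 of 41 and complex IV 14 of 18.

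Few start regions of members were lost. Of the 90 members with a start region in the untreated library, 1 lacked it at day 1, 1 at day 7 and 2 at day 28, against 6.16%, 3.77% and 4.2% of all genes. The exact binomial 95% intervals of the member shares, 0.0281 to 6.04% at days 1 and 7 and 0.27 to 7.8% at day 28, include the share of all genes at days 7 and 28. Of the 6 members without a start region in the untreated library, 1 (Ndufa13, described below) had gained it at day 1. At day 7 and at day 28, 0 had gained it. The shares of all genes were 10.3%, 7.84% and 3.97%. The interval for 1 of 6 runs from 0.421 to 64.1% and that for 0 of 6 reaches 45.9%, so 6 genes are too few to set against those shares. The 3 comparisons share the untreated library and are not independent of each other.

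**Figure D1:**
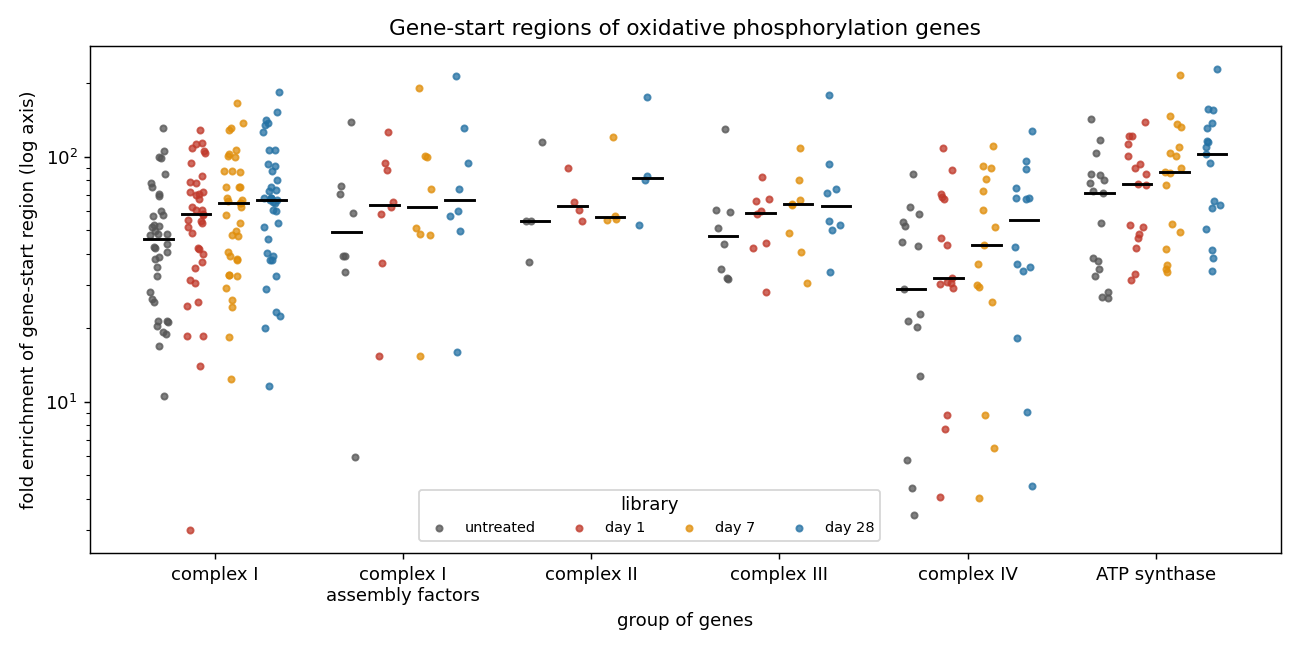
Fold enrichment (log axis) of the strongest gene-start region of each member, 1 point per gene, in the untreated, day 1, day 7 and day 28 libraries; black bars are medians over members with a start region. The ATP synthase genes have the highest medians, and complex IV holds most of the lowest points.

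The same 3 genes had the highest start folds among the members in every library. Atp5g1, which encodes the membrane ring subunit c of the ATP synthase, had folds of 142, 139, 216 and 228. Ndufaf8, an assembly factor of complex I, had folds of 139, 126, 191 and 214. Ndufa6, an accessory subunit of complex I, had folds of 131, 129, 165 and 183. All 3 stayed above 95% of the 13194 genes that had a start region in every list. Atp5g2 and Atp5g3 encode the same mature subunit c as Atp5g1, and their starts ranked lower in each library: Atp5g2 had folds of 84.0, 121, 132 and 137, and Atp5g3 had 38.6, 42.5, 52.9 and 66.1.

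The promoter windows of the leading pair are printed with the letters of the 8 searched motifs in capitals; the motifs are spelled out further below. Each window runs from 250 bases before to 50 bases after the annotated start in RefSeq on GRCm38.p6, and positions count from the start as 0. The Atp5g1 window lies at chr11:96075582-96075881 on the minus strand and holds 5 matches to the CCAAT box and an AP-1 match. The Ndufaf8 window lies at chr11:120098684-120098983 on the plus strand and holds 4 CCAAT matches, an SP match and a YY1 match at position 10.
Atp5g1: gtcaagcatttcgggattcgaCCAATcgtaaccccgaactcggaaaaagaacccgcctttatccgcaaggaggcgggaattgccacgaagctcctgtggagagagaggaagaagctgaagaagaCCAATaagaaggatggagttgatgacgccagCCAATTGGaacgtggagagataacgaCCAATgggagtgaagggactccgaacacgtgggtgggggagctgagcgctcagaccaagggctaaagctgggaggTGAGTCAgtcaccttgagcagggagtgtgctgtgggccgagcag
Ndufaf8: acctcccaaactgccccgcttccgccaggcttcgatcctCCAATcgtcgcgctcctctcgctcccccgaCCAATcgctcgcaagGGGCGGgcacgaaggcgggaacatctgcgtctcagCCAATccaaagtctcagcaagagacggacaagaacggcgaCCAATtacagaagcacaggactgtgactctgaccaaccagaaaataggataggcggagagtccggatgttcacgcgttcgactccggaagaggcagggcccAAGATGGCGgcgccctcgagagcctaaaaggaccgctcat

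The lowest starts among genes present in every list belonged to Cox4i2, Cox7b, Ndufaf1 and Ndufa9. Cox4i2, the isoform of Cox4 that is best known from lung, had folds of 4.45, 7.72, 6.45 and 4.54, from pileups of 26, 48, 23 and 15 reads. It has no annotated start here, and its day 1 region lies at the opposite end of the gene from the others. Cox7b, a general complex IV subunit, had folds of 5.77, 8.82, 8.86 and 9.08. The assembly factor gene Ndufaf1 had 5.93 in the untreated library and 15.3, 15.3 and 15.9 later, and the accessory subunit gene Ndufa9 had 10.5, 14, 12.4 and 11.6. These 4 genes were the lowest of the ranked members in every library. Neighbours in that order were not always separate within counting error: the exact Poisson 95% interval of the Cox4i2 fold ran from 2.96 to 6.44 in the untreated library, and that of Cox7b from 4.04 to 7.99. All intervals cover counting error only.

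The genes without a start region in every list were mainly isoforms restricted to other tissues. Cox6a2 (heart and skeletal muscle), Cox8c (testis) and Cox7b2 had none in any library, and no region at all within 10 kb. For Cox7b2 this holds over a gene span of 105 kb. Cox8b, the heart and skeletal muscle form of subunit 8, had weak start regions in the untreated, day 1 and day 7 libraries and none at day 28. The folds were 3.46, 4.10 and 4.03. They do not follow 1 region through time: the day 7 start regions, of 14 reads each, overlap no untreated region. In no library did a region cover the start itself. Its general partner Cox8a had 85.0, 109, 111 and 127. The 4 muscle marker genes had 14, 13, 11 and 10 regions in sum: Ckm had 12, 4, 6 and 7, Acta1 2, 6, 4 and 3, Myh1 0, 3, 1 and 0, and the muscle factor gene Myod1 0 in every library. Ckm had a start region in the untreated and day 28 libraries and Myh1 at day 1. Their part in the values of the muscle isoforms was not tested. Not every restricted isoform was closed: Cox7a1 (heart and skeletal muscle) had folds of 22.7, 32.0, 25.5 and 36.3, Cox6b2 (testis) had 12.7, 29.0, 29.8 and 18.2, and the hypoxia-inducible Ndufa4l2 had 19.3, 18.6, 26.1 and 22.4. Their partners Cox7a2, Cox6b1 and Ndufa4 had higher folds than they did in every library, at 45.0 to 72.3, 20.1 to 36.3 and 54.4 to 72.9. Ndufa4l2 has no annotated start here, and its day 1 and day 7 values come from opposite ends of the gene. At days 1 and 7 the folds were 15.6 and 26.1 at 1 end, and 18.6 and 13.2 at the other. The partners Cox4i1 and Cox6a1 had folds of 43.0 to 67.6 and 62.3 to 96.2.

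The windows of Cox8a and Cox8b are shown because the pair encodes the same subunit and lies at opposite ends of the range. The Cox8a window, at chr19:7217567-7217866 on the minus strand, holds 2 ETS matches and a CCAAT match and has 19 CG dinucleotides. The Cox8b window, at chr7:140900397-140900696 on the minus strand, holds none of the 8 motifs and has 2 CG dinucleotides.
Cox8a: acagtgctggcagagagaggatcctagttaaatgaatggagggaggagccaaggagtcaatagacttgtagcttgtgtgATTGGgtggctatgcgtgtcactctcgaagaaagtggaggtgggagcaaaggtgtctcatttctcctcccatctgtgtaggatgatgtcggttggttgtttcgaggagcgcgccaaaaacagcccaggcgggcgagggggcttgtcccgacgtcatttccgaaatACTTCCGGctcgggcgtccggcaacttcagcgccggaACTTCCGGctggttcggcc
Cox8b: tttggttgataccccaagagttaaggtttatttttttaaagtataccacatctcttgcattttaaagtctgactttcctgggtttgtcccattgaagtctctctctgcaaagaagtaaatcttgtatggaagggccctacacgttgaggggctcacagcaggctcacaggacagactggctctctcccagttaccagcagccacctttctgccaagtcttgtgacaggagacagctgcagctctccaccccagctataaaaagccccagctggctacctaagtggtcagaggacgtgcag

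A second pair shows a gene and a short copy of it. Ndufb4, a complex I subunit gene, had start folds of 69.4, 83.4, 87.0 and 91.4. Ndufb4b and Ndufb4c had no start region in any library. Ndufb4b spans 0.471 kb and Ndufb4c 0.485 kb, against 6.77 kb for Ndufb4. The longest run shared by the windows of Ndufb4 and Ndufb4b has 26 bases and begins at position -1 of Ndufb4 and position 24 of Ndufb4b. It ends at the last base of the Ndufb4b window, so the identity of gene and copy may be longer than the windows can show. Reads from such copies can be split or dropped where they are near-identical, which depends on read filters that no source used here records. The Ndufb4 window, at chr16:37654319-37654618 on the minus strand, holds 3 NRF1 matches, and the Ndufb4b window, at chr19:25032858-25033157 on the plus strand, holds none of the 8 motifs.
Ndufb4: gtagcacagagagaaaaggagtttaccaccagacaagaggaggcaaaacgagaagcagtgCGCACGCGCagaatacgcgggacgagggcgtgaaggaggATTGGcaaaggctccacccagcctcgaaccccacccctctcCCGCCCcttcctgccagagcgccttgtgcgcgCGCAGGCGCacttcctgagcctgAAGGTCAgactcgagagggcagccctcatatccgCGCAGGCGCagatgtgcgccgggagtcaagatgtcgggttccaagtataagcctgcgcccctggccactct
Ndufb4b: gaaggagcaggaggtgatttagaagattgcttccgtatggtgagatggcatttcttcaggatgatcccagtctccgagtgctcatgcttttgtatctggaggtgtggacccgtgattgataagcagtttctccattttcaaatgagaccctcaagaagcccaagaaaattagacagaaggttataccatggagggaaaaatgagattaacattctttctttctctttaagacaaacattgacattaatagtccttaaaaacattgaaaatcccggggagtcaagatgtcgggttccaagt

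At Ndufa13 the start was covered by a region in all 4 libraries, but a summit lay within 1 kb of it at day 1 only. This is the gain of a start region at day 1 counted above, at a start that was already covered in the untreated library. Ndufa13 encodes a complex I subunit, and a wide region at chr8:69901207-69903804 covers its start with folds of 67.7, 101, 102 and 112. Its strongest summit lies at -1.28 kb (upstream), beyond the divergent start of Tssk6, which is 164 bp from the Ndufa13 start. Counted by coverage of the start and not by the summit, a choice made after seeing the data, 89 members had an accessible start in each library and in all 4, against 57.9% of all genes in all 4. By this count the 7 members not covered were Cox4i2, Cox7b2, Cox6a2, Cox8b, Cox8c, Ndufb4b and Ndufb4c.

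The position of the start regions differed little between libraries. For members with an annotated start the median summit lay at -36, -33.5, -32 and -40 bp from it, where minus means upstream. The summit was within 250 bp of the start for 69 of 75, 68 of 76, 68 of 75 and 70 of 74 of these members. The members were compact genes, with a median span of 7.23 kb against 17.3 kb for all protein-coding genes. Of the 78 members with an annotated start, 23 (29.5%) had the start of an opposite-strand gene within 1 kb upstream, against 13.3% of all genes with an annotated start. Examples are Sdhd with Timm8b 52 bp away, Sdha with Ccdc127 77 bp away and Ndufa7 with Rps28 10 bp away. A start region there cannot be assigned to either gene of the pair.

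To compare libraries, each member's start fold was ranked among the 13194 genes that had a start region in all 4 lists. A rank is the percentile in its own library. The median rank of the 88 ranked members was 59.3, 58.2, 56.7 and 54.0. ATP synthase genes ranked highest, at medians of 77.0, 72.4, 72.7 and 74.4, and complex IV genes lowest, at 45.6, 35.8, 42.3 and 44.8. The complex IV medians include the restricted isoforms Cox4i2, Cox6b2 and Cox7a1, with ranks of 2.83, 17.4 and 30.0 in the untreated library. The 7 general partners of restricted isoforms, Ndufa4 among them, had medians of 55.8, 52.6, 51.7 and 54.0. The low complex IV medians are therefore not a trait of its general subunits alone. Complex I genes had medians of 59.2, 56.6, 57.2 and 53.4, complex III genes 58.4, 57.2, 56.7 and 50.5, and the assembly factors 59.4, 61.3, 55.0 and 53.4. At day 1 the rank was higher than in the untreated library for 48 members and lower for 40, with a median shift of 0.963 points. At day 7 it was higher for 41 and lower for 47, with a median shift of -1.21 points. At day 28 it was higher for 28 and lower for 60, with a median shift of -1.58 points, against -0.303 over all 13194 genes. Over all 13194 genes the rank was higher for 6928 and lower for 6262 at day 1, for 6614 and 6575 at day 7, and for 6167 and 7022 at day 28. At day 28, 80 of 88 members lay within 10 points of their untreated rank, as did 11952 of all 13194 genes, which is nearly the same share. The quartiles of the day 28 shift were -3.97 and 0.351 at the members and -3.42 and 2.82 over all genes.

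**Figure D2:**
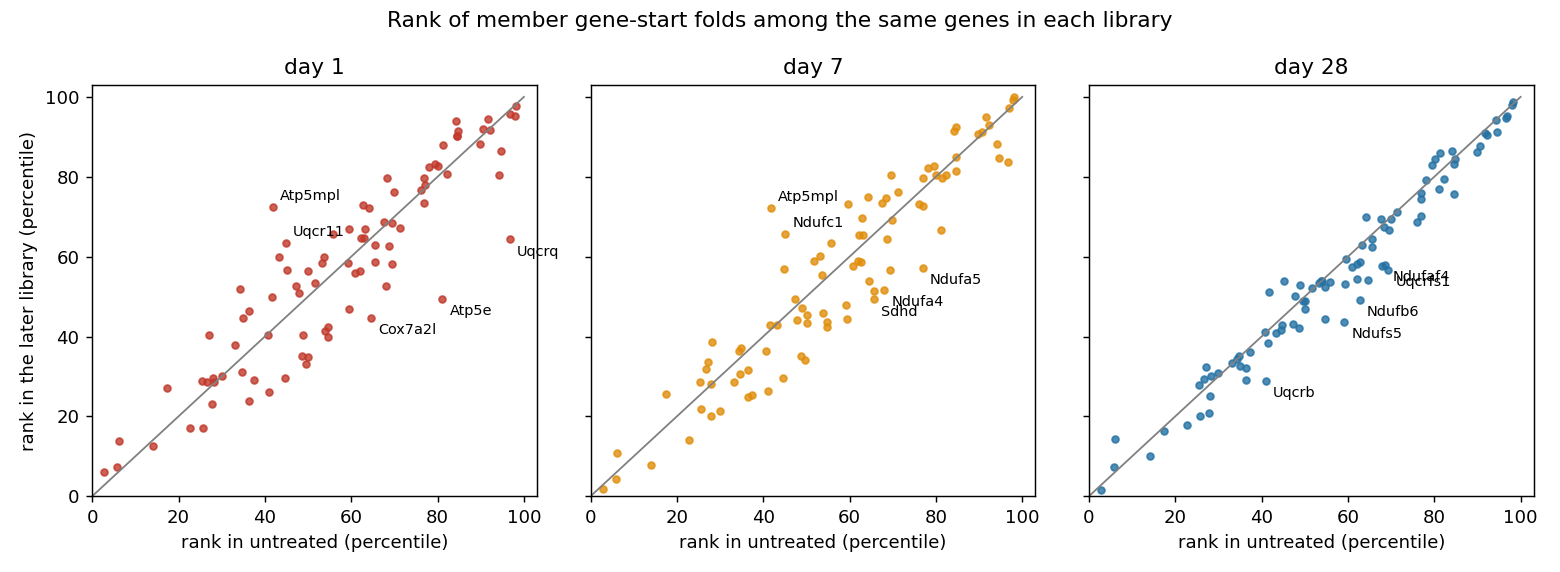
Percentile rank of each member's start fold among the same 13194 genes in the untreated library (horizontal) and at day 1, day 7 and day 28 (vertical), 1 point per member; the line marks equal ranks and the 5 members with the largest shift are named. Within 10 points of the untreated rank lie 64 of 88 members at day 1 and 80 at day 28, against 8018 and 11952 of all 13194 genes, so the wider scatter at day 1 is not particular to the members.

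A few members stood much lower at day 1 and near their untreated rank at day 28. Uqcrq, a small subunit of complex III, ranked at 96.7, 64.3, 83.7 and 94.6. Its folds were 130, 67.0, 108 and 178. The intervals of its rank, 95.3 to 97.9 in the untreated library and 58.8 to 69.9 at day 1, do not overlap. Uqcrq has no annotated start in the table used here, and its region also lies on the overlapping gene Gdf9. Atp5e, the epsilon subunit of the ATP synthase, ranked at 81.1, 49.5, 66.7 and 77.0, with folds of 77.9, 51.4, 76.6 and 110. Its rank intervals, 77.1 to 84.7 in the untreated library and 44.0 to 55.3 at day 1, do not overlap either. Both genes followed the order untreated, day 28, day 7, day 1, which is also the order of the region count at the acinar markers; the part of acinar cell content in this was not tested.

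Atp5mpl and Uqcr11 ranked higher at days 1 and 7. Atp5mpl, a small membrane subunit of the ATP synthase, ranked at 41.8, 72.4, 72.2 and 51.1, with folds of 32.6, 77.2, 85.4 and 63.3. Uqcr11, a small complex III subunit, ranked at 44.8, 63.3, 56.8 and 43.0. Cox7a2l, an assembly factor of respiratory supercomplexes, ranked at 64.6, 44.6, 53.8 and 54.2. At day 7 the largest shifts after Atp5mpl were 20.5 points at Ndufc1, -19.6 at Ndufa5, -16.3 at Ndufa4 and -16.3 at Sdhd. At day 28 the largest were all downward: -15.6 points at Ndufs5, -13.6 at Ndufb6, -12.9 at Uqcrfs1, which encodes the Rieske iron-sulfur protein of complex III, -12.1 at Uqcrb and -10.7 at Ndufaf4. The rank intervals of Ndufs5 were 53.6 to 64.7 in the untreated library and 38.4 to 49.9 at day 28.

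Complex II links the tricarboxylic acid cycle to the respiratory chain, and all 4 of its genes had a start region in every list. Sdha, the flavoprotein, had folds of 54.7, 65.5, 57.5 and 83.4. Sdhb, the iron-sulfur subunit, had 115, 89.5, 120 and 175. The membrane anchors Sdhc and Sdhd had 37.1, 54.5, 55.6 and 52.8, and 54.7, 60.7, 55.3 and 80.0. The median rank of the 4 genes was 65.6, 60.8, 50.4 and 63.4, lowest at day 7.

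The promoter sequences of the members were searched for 8 short motifs on both strands. RefSeq windows were found for 78 members, 83 windows in all. The motifs were GCGCNTGCG (NRF1), CCGGAAGT (ETS), AAGATGGCG (YY1), GGGCGG (SP), CCAAT (the CCAAT box), TGACGTCA (CRE), AAGGTCA (ERR) and TGANTCA (AP-1), where N is any base. No match shows a bound site, and matches of different motifs can overlap. NRF1 is a nuclear regulator of respiratory genes: its motif was in 27 member windows (32.5%), against 8.69% of 21045 windows of all genes and 12.7% of the 13595 windows of genes with a start region in every list. The YY1 motif was in 8 (9.64%), against 1.84% and 2.73%, and the motif of the oestrogen-related receptors (ERR) in 8 (9.64%), against 4.06% and 3.07%. The SP motif was in 43.4%, against 46.7% and 63.0%, and the CCAAT box in 42.2%, against 38.5% and 37.6%. ETS (6.02%, against 5.2% and 7.53%), CRE (4.82%, against 2.26% and 3.09%) and AP-1 (8.43%, against 7.04% and 5.02%) were within a few windows of the share of all genes. The member windows had a median of 20 CG dinucleotides, as did the windows of genes open in every list, against 13 in all windows.

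**Figure D3:**
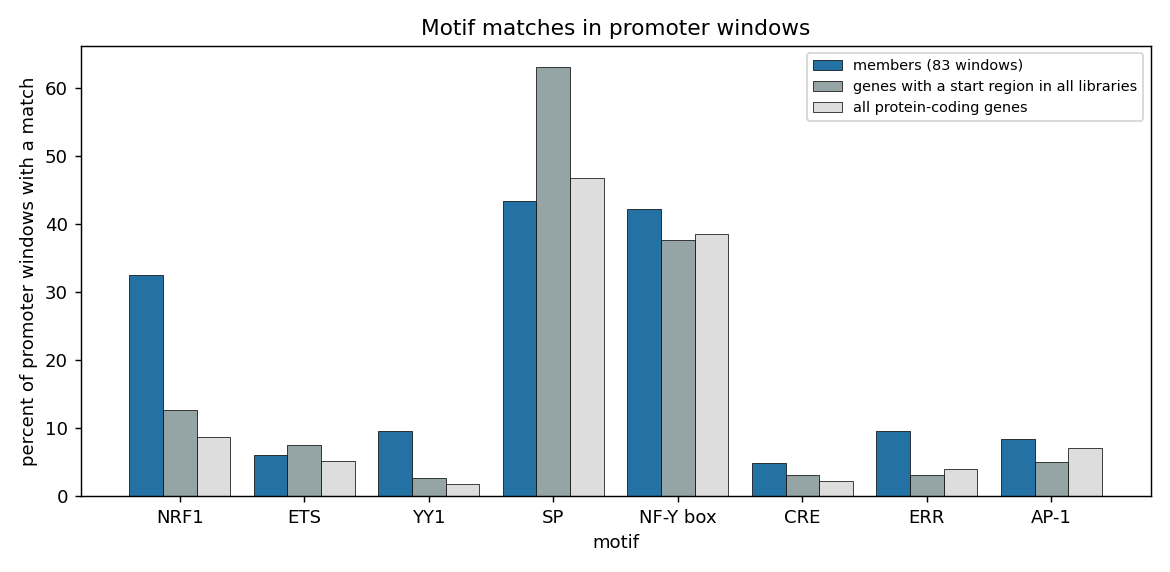
Percent of promoter windows with at least 1 match to each motif, for the 83 member windows, for genes with a start region in all 4 libraries and for all protein-coding genes; the NF-Y box is the CCAAT box of the text. The bars of members stand above both others for NRF1 (32.5%), YY1 (9.64%), ERR (9.64%), the CCAAT box (42.2%), CRE (4.82%) and AP-1 (8.43%), the last 3 by a few windows only.

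The YY1 matches lay close together. Of 8 matches, 7 began at or after the start, at positions 10 (Ndufaf8), 22 (Ndufc1), 23 (Atp5j2), 24 (Ndufs7), 29 (Ndufa9), 33 (Ndufs6) and 35 (Ndufs4), and all 8 read as written on the gene's own strand. The remaining match, in Atp5j, began at position -88. The NRF1 matches were spread from position -241 to 31, and 15 of 41 read as written. That motif nearly equals its own reverse complement, so a site can match on both strands, as in Atp5k at positions -50 and -49. The 41 matches are therefore not all separate sites, and their strands are not comparable with those of YY1. The Sdha window, at chr13:74350191-74350490 on the minus strand, is shown for its 3 NRF1 matches at positions -97, -54 and -9. The Atp5e window, at chr2:174464052-174464351 on the minus strand, is shown because its start had the lower rank at day 1. It holds 2 SP, 2 CCAAT and 1 ERR matches.
Sdha: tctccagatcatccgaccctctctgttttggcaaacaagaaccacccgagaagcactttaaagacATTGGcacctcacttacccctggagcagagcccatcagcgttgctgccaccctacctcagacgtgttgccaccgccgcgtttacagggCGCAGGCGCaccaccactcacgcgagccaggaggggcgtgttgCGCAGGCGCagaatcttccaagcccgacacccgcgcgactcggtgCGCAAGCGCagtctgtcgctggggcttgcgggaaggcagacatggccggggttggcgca
Atp5e: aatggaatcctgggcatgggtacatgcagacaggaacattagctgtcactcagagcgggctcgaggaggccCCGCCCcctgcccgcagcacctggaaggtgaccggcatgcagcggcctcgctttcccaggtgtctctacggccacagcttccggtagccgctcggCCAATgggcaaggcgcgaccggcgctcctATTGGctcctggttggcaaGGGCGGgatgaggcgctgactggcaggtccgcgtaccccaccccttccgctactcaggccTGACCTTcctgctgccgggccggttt

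Away from the starts the lists differed more. Within 10 kb of the members they held 442, 394, 374 and 407 regions. A region was called gained when it overlapped no untreated region, and lost when an untreated region overlapped none of the later list. At day 1, 96 of 394 regions were gained (24.4%, exact binomial 95% interval 20.2 to 28.9), against 48.6% of all regions near protein-coding genes. In the same comparison 126 of 442 were lost (28.5%, 24.3 to 33.0), against 36.8%. At day 7, 48 of 374 were gained (12.8%, 9.62 to 16.7), against 32.7%, and 123 of 442 were lost (27.8%, 23.7 to 32.3), against 31.9%. At day 28, 52 of 407 were gained (12.8%, 9.69 to 16.4), against 22.8%, and 80 of 442 were lost (18.1%, 14.6 to 22.0), against 26.4%. Losses outnumbered gains at the members at each time. With a common enrichment floor, set relative to the regions that all lists share, the gains at day 1 were 38 of 284, or 13.4%, against 37.5%.

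Part of the difference from other genes goes with where the regions lie. In the untreated library 44.6% of the member regions, but 18.6% of all regions near genes, had a summit within 1 kb of a gene start, the class with the fewest changes over all genes. Within that class 10.2% of member regions were gained at day 1 (6.23 to 15.4), against 17.6% for all genes, and 8.12% were lost (4.71 to 12.9), against 13.2%. Inside genes and away from starts, 40.6% were gained at day 1 (32.0 to 49.7), against 55.3%, and 17.4% at day 7 (11 to 25.6), against 37.3%. In that class the losses were not below the share of all genes until day 28: 83 of 164 at day 1 (50.6%, 42.7 to 58.5), against 43.0%, and 78 of 164 at day 7 (47.6%, 39.7 to 55.5), against 37.3%. By day 28 the share was 44 of 164 (26.8%, 20.2 to 34.3), against 29.9%. The intervals at days 1 and 28 include the share of all genes. Of the 73 untreated regions inside the member genes themselves, 36 were lost at day 1 (49.3%), 39 at day 7 (53.4%) and 15 at day 28 (20.5%). No share over all genes is given for this narrower class.

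**Figure D4:**
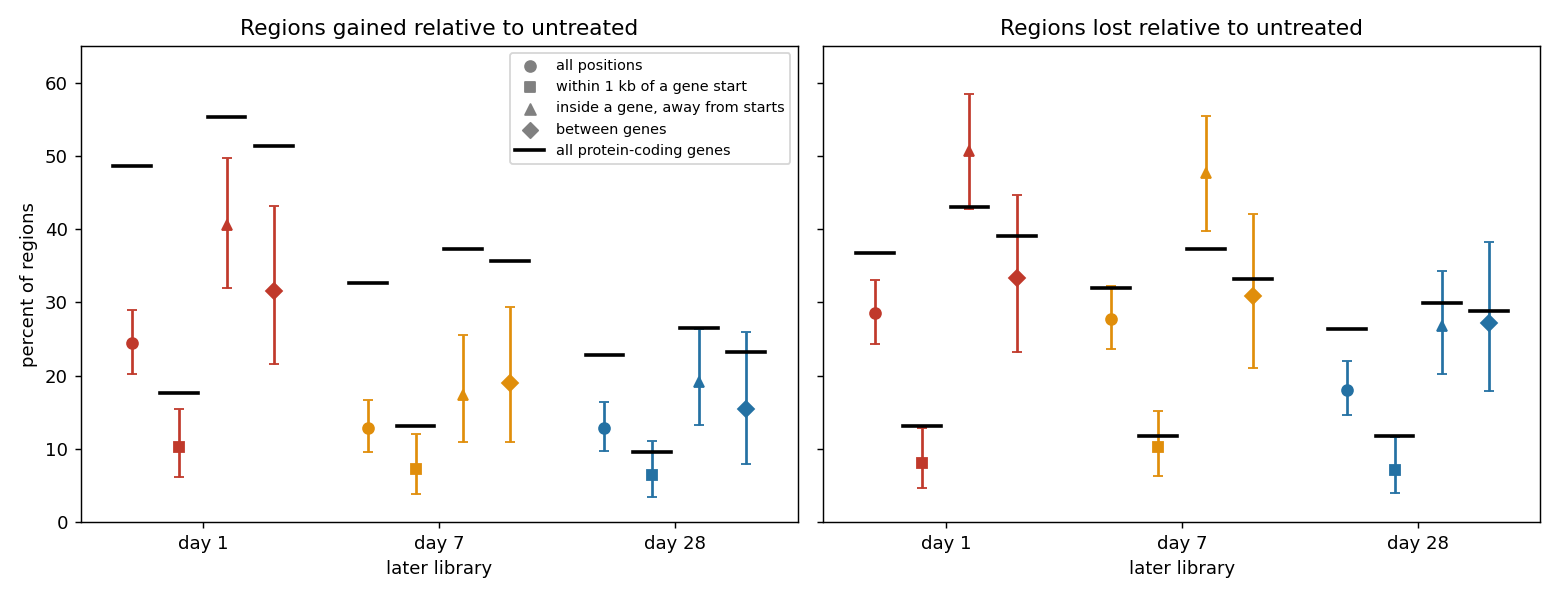
Percent of later regions gained (left) and of untreated regions lost (right) at the members at day 1, day 7 and day 28, in all positions and by position; whiskers are exact binomial 95% intervals and black bars the share over all protein-coding genes. Member gains lie below the bars in all 3 libraries, and losses inside genes lie above them at days 1 and 7, where the day 1 whisker includes the bar.

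Joined over the lists, the members had 497 separate regions, of which 231 (46.5%) were in every list, against 28.6% of the 162335 joined regions near any protein-coding gene. Regions in the day 1 list only numbered 60 (12.1%, against 21.5%), and regions in the untreated list only 48 (9.66%, against 10.8%). Of the 126 regions lost at day 1, 74 were listed at day 28 (58.7%, 49.6 to 67.4), against 51.7% for all genes. Of the 96 gained at day 1, 17 were still listed at day 28 (17.7%, 10.7 to 26.8), against 14.7%. Both intervals include the share of all genes.

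The regions that were in the untreated and day 28 lists and missing at day 1 numbered 60, at 33 members. They made up 12.1% of the joined member regions (9.34 to 15.3), against 10.4% of those near all genes, a share that this interval includes. They lay mostly inside genes: 22 inside the member gene and 20 inside another gene, with 13 between genes and 5 at starts. The regions named here were picked after their folds were seen. The strongest was inside Ndufa7, an accessory subunit gene of complex I, at chr17:33828631-33829851, 4.37 kb downstream of the start. Its folds were 47.3, not listed, 18.5 and 55.6. The pileups were 286, 68 and 195 reads where it was listed, while 14 reads sufficed for the day 1 list. The start of the same gene had folds of 48.4, 70.1, 86.8 and 75.2 and ranks of 59.6, 67.0, 73.1 and 59.3, so its rank was higher in the libraries where the inner region was missing or low.

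Complex II had a region of the same kind in 3 of its genes. Inside Sdhc, at chr1:171142903-171143984, the folds were 30.8, not listed, 15.8 and 45.4. Inside Sdhb, at chr4:140967856-140968256, they were 12.4 in the untreated library and 12.2 at day 28, with no region at days 1 and 7. Downstream of Sdhd, at chr9:50594367-50595510, they were 15.5, not listed, 6.45 and 17.9. Inside Ndufa6, 3.82 kb from its start, the folds were 16.8, not listed, 6.18 and 15.3, and inside Ndufs7, a core iron-sulfur subunit gene, 13.2 in the untreated library and 15.6 at day 28 only. Where a region was back at day 7, which was so for 25 of the 60, its day 7 fold was under the untreated fold in 18. These regions were selected by the libraries that list them, so that count is a description.

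**Figure D5:**
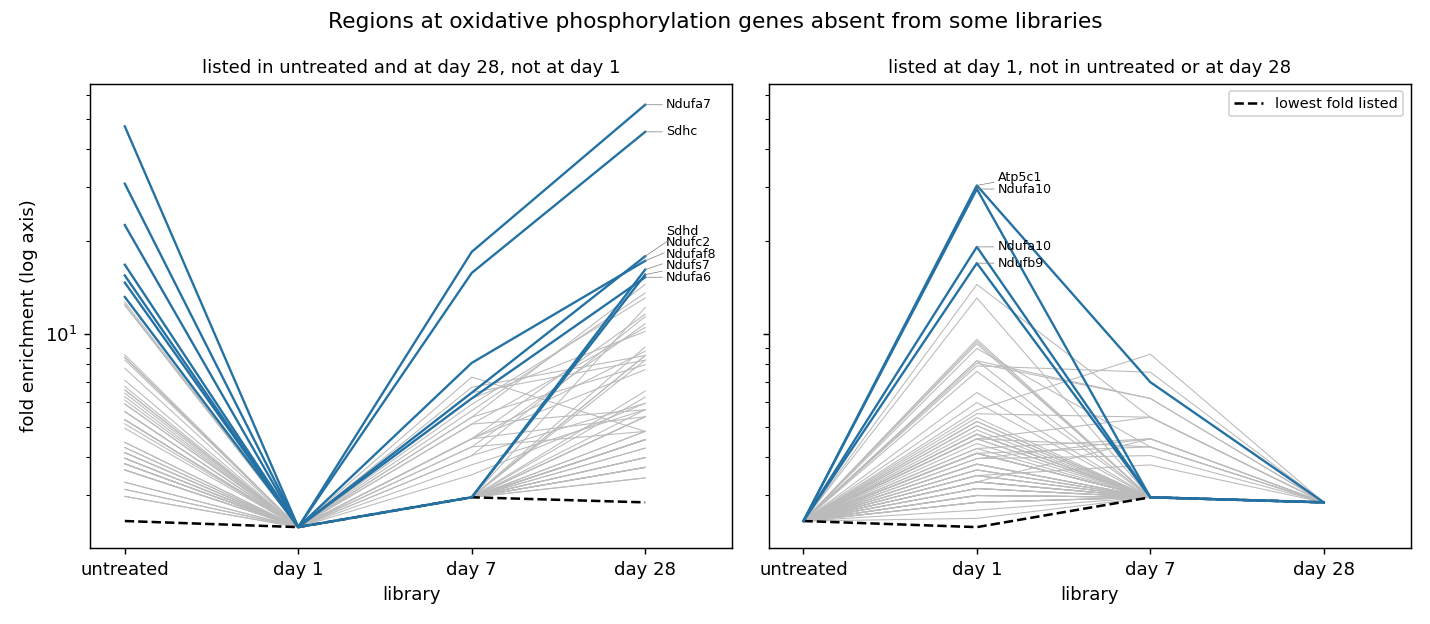
Fold enrichment (log axis) of member regions across the 4 libraries, 1 line per region: left, the 60 regions in the untreated and day 28 lists but not at day 1, right, the 76 regions at day 1 but in neither the untreated nor the day 28 list. A missing region is drawn at the lowest fold of that list (dashed line), and the strongest are named by gene.

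The digestive enzyme genes had fewest regions at day 1, more at day 7 and most in the untreated and day 28 libraries. These 17 genes had 225, 60, 133 and 235 regions, and they had lost 82.2% of the untreated regions at day 1, 65.3% at day 7 and 10.7% at day 28. Their median start rank, over the 4 genes with a start region in every list, was 53.7, 2.12, 12.6 and 47.6. The 7 acinar markers, listed above, had 125, 33, 75 and 116 regions. The part of acinar cell content in the regions of the members was not tested.

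The opposite pattern, a region at day 1 but in neither the untreated nor the day 28 list, was seen for 76 joined regions at 44 members. This was 15.3% of the member regions (12.2 to 18.8), against 29.7% of those near all genes. Ndufa10, an accessory subunit gene of complex I, held several of them, and the regions named here were picked after their folds were seen. At chr1:92448095-92449009 and chr1:92441358-92441946 the day 1 folds were 29.6 and 19.2, and neither region was in another list. A nearby region at chr1:92439974-92441079 is not among the 76, since it was in the untreated list with a fold of 3.13; its fold was 42.1 at day 1, with no region later. The Ndufa10 start itself had folds of 51.4, 67.3, 74.9 and 68.1. Inside Atp5c1, the gene of the gamma subunit in the stalk of the ATP synthase, a region at chr2:10076678-10077494 had folds of 30.4 at day 1 and 6.98 at day 7 and was in neither other list. A region near Ndufb9, at chr15:58927566-58928006, had a fold of 17.0 at day 1 only, and it lay inside another gene. The fibroblast markers had most regions at day 1 as well (89, 140, 122 and 90), and their part in these gains was not tested.

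By gene, the gained regions at day 1 included 5 of 11 at Uqcrc1, which encodes a core protein of complex III. They also included 4 of 8 at Atp5c1, 4 of 7 at Ndufa10 and 4 of 11 at Ndufa13, against 48.6% over all genes. The highest counts of lost regions were at Atp5d, the delta subunit of the ATP synthase (7 of 14), and at Ndufs7 (7 of 16). Ndufaf8 had lost 6 of 9, Uqcr11 6 of 12 and Ndufa13 5 of 13, against 36.8% over all genes. A count by gene also depends on how many regions the gene has. At day 7, Ndufs7 lacked 7 of 16 untreated regions, Ndufa13 6 of 13 and Atp5d 5 of 14. Ndufaf8 lacked 5 of 9 and Uqcr11 5 of 12, against 31.9% over all genes. Cox8b had 3 new regions among its 5, the most of any member, against 32.7% over all genes. At day 28, Ndufa13 had 4 new regions of 13 and Atp5d 3 of 14, against 22.8% over all genes. Ndufa10 lacked 4 of 5 untreated regions, Ndufb7 and Ndufv1 4 of 7 each, Ndufs7 4 of 16 and Uqcr11 4 of 12, against 26.4%. Several of these genes have close neighbours, so their 10 kb surroundings hold regions inside other genes; the region at -5.86 kb from the Ndufaf8 start, for instance, lies inside another gene and had folds of 51.6, 4.10, 28.7 and 71.5.

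Genes that build or feed the same chain had start regions in every list too. All 34 other assembly factors and electron carriers, all 13 tricarboxylic acid cycle genes and all 17 glycolysis genes had a start region in every list, as had 72 of 75 cytosolic ribosomal protein genes. The assembly factors had gained 39.4% of their day 1 regions and lost 41.1% of their untreated ones, the cycle genes 36.5% and 47.6%, the ribosomal protein genes 31.3% and 30.1% and the glycolysis genes 47.7% and 30.8%, against 24.4% and 28.5% at the members.

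All 14 regulators of these genes had a start region in every list, and those named here were picked after their values were seen. The starts of several transcription factor genes ranked high in every library: Nrf1 at 69.1, 60.3, 67.6 and 73.1, Gabpa at 94.6, 86.5, 84.6 and 91.2, Esrra at 95.7, 94.2, 92.6 and 93.8 and Yy1 at 97.2, 96.1, 98.2 and 96.6. The Gabpa start lies 148 bp from that of Atp5j, and the pair shares its region. Esrrg ranked low, at 16.6, 11.4, 8.19 and 17.1, and Tfam, the packaging factor of mitochondrial DNA, at 48.1, 56.4, 47.9 and 41.4. Gabpb1, which encodes the partner subunit of Gabpa, ranked at 42.4, 40.2, 80.8 and 53.4, highest at day 7. The coactivator genes of the PGC-1 family differed among themselves. Ppargc1a, which encodes PGC-1alpha, had folds of 28.0, 3.78, 8.06 and 36.9 and ranks of 36.4, 1.02, 3.52 and 31.4. Ppargc1b, its relative, had folds of 28.0, 5.04, 9.13 and 57.3 and ranks of 36.4, 2.83, 4.71 and 46.8. Both were lowest at day 1 and had higher folds again at day 28, like the digestive enzyme genes, and the part of acinar cell content was not tested here either. The third member of that family, Pprc1, ranked at 68.7, 71.6, 64.2 and 69.6.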

How the data were processed

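The deposited files are 1 peak list per library in the narrowPeak layout. Per the submitters' processing notes, cutadapt, Bowtie2 2.2.6, SAMtools, MACS2 2.1.0.20150731, deepTools and GRCm38 (mm10) were used; no source used here records read filters, options or a shift to the transposase cut site. In the deposited lists the authors' fold enrichment is a ratio of summit pileup to background. Significance stands beside it as the deposited −log10 p and −log10 q. The deposited score is the −log10 q times a constant and cut to a whole number, and the deposited summit offset (another column) gives the summit. Pileups were recovered from the fold spacing, with 1 background per list, and 100.0% came out whole within 0.05. Totals of reads are not given, so the pileup is the depth behind each value.

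Groups came from the sample titles. Regions were linked to RefSeq GRCm38.p6 gene spans within 10 kb of the summit and compared by overlap of at least 1 bp, using Python 3.11.15, pandas 2.3.3 and SciPy 1.17.1; bedtools 2.31.1 gave the same counts. Overlap, linking and background recovery were tested on simulated data. RefSeq promoter windows matched 78 of 96 members; the starts of the other 18 were taken at either gene end. Shares have exact (Clopper-Pearson) and pileups exact Poisson 95% intervals, which cover counting error only.

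The members and lists were chosen with earlier results of these data known. Named were members lacking a start region in at least 1 list, restricted isoforms and their partners, complex II, up to 5 members per comparison with the most gained or lost regions (at least 2), the 3 highest and lowest starts per list and the 5 largest rank shifts per comparison. Values of 1 gene are not reported here. Single regions were picked after their folds were seen. Alternatives were other linking distances, nearest genes, overlap, −log10 q of at least 5, a common enrichment floor, other start windows and a narrower member list.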

Additional observations from a re-analysis of the deposited data

How the results depend on the processing

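Counts of start regions and median start ranks kept their values within 1.5 times or the spread of the starts under each alternative tried, including 3 chosen after seeing the data (either gene end as the start for every gene, members with an annotated start only, and a region covering the start). Counts of gained and lost regions fell with the territory searched. With summits inside the gene span only, 29, 12 and 15 regions were gained and 37, 41 and 17 lost at days 1, 7 and 28. Within 2 kb, 42 of 205, 18 of 189 and 21 of 223 were gained (20.5%, 9.52% and 9.42%, against 48.1%, 32.1% and 22.7%). Of 237 untreated regions there, 58, 67 and 33 were lost (24.5%, 28.3% and 13.9%, against 36.5%, 31.9% and 26.1%). With summits whose nearest gene is a member, 48 of 205, 23 of 195 and 20 of 216 were gained and 56, 62 and 35 of 236 lost. The share over all genes is not given for that setting. Fewer regions enter each of these 3 settings by construction. A common enrichment floor, relative to the regions that all lists share, left 38 of 284 regions gained at day 1 (13.4%, against 37.5% over all genes). The losses then stood at 159 of 442 (36.0%, against 44.5%). Within the 150 bases nearest the start, the SP motif was in 32.5%, the CCAAT box in 27.7% and AP-1 in 2.41% of member windows, while YY1 stayed at 9.64% and ETS at 6.02%. The shorter window can hold no more matches than the whole by construction. Over all results and alternatives, 96 values under alternatives stayed within 1.5 times the value given above or the spread behind it, and the 22 just listed did not. No paired analysis was possible because each group has 1 library and no test was made. With 1 library per group, a difference between groups cannot be told apart from one between preparations. A region missing from a list had at most the pileup that list required, 14 reads in the untreated and day 1 libraries, 10 at day 7 and 9 at day 28, so the absence of weak regions was not measurable.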

Other observations

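Among the genes that bring glucose carbon toward the mitochondria, the start of Hk2, which encodes a hexokinase, ranked at 89.6, 99.8, 95.9 and 91.4 in the untreated, day 1, day 7 and day 28 libraries, and regions within 10 kb of it numbered 21, 50, 57 and 19. The start of Hk1 ranked at 73.8, 95.1, 93.6 and 85.8, and that of the phosphoglycerate mutase gene Pgam1 at 68.2, 95.8, 84.6 and 78.1. Other genes of that list ranked lower at day 1, such as Pdk1 (84.0, 63.3, 63.3 and 87.5) and Pfkl (66.6, 44.4, 44.8 and 56.4). Over all 17 glycolysis genes the median rank was 75.9, 69.7, 71.6 and 78.1, so a higher rank at day 1 was not shared by the list. These are single libraries, and the genes were picked from the glycolysis list after their values were seen.

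Some regions near members were in all 4 lists with unequal heights. Inside Sdhb, at chr4:140963844-140965006, the folds were 8.90, 54.8, 25.0 and 15 in the same order. A region at -8.21 kb from the Ndufa6 start had folds of 7.25, 46.8, 33.0 and 7.95, and another downstream of Sdhd, at chr9:50590760-50591594, had 6.92, 33.2, 30.1 and 6.53. The median of fold minus 1 in regions of all lists was 7.4, 16.6, 15.1 and 11.5.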
